A study of Homo sapiens with 4 samples.

Results

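The CD31+CD34+ population sorted on day 4 of a blood-directed culture of the human embryonic stem cell line H1 was compared, gene by gene, with the 3 other populations of the series. The day 4 cells are called HEP after their label. A gene was counted as highest in HEP when its value there plus 1 was at least 2-fold above the largest of the other 3 values plus 1, and the HEP value was 5 or more. A gene was counted as lowest in HEP when its value plus 1 was at least 2-fold below the smallest of the other 3, and all of those were 5 or more. Of 17630 genes, 184 were highest in HEP (1.04%) and 168 were lowest there (0.953%). Among the 8174 genes at 5 or more in any library, the 184 made up 2.25%. Among the 4302 genes at 5 or more in all 3 other libraries, the 168 made up 3.91%.

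The 4 groups were undifferentiated H1 cells (hESC), APLNR+ cells of day 2 (MES), CD31+CD34+ cells of day 4 (HEP) and CD31+CD43+ cells of day 7 (HPC). MES cells had received activin A at 40 ng/ml and BMP4 at 50 ng/ml for 2 days. HEP cells had received the same and then VEGF at 40 ng/ml and bFGF at 50 ng/ml for 2 further days. HPC cells had in addition spent 3 days in VEGF and bFGF at those doses with SB-431542, an inhibitor of the activin and TGF-beta type I receptors. The differentiated cells were sorted by flow cytometry, whereas no sort is stated for hESC. Each population was 1 library of 1 cell line, so the spread between replicates is not known, no test was run, and every difference below is a difference between single libraries. Day, added factors and sort change together between the libraries and cannot be told apart.

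Endothelial cells line blood vessels, and in the embryo a subset of them, hemogenic endothelium, gives rise to blood cells. They depend on VEGF and angiopoietin receptors, hold together through VE-cadherin junctions, and lie on a basement membrane whose main collagen is type IV. CD31 and CD34 mark endothelium and early blood progenitors, and CD43 appears on the surface of committed blood cells.

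The values were a normalised expression signal per gene, given below in the order hESC, MES, HEP and HPC unless stated. The sum over genes lay between 306724 in HEP and 426980 in hESC. The number of genes at 5 or more was 5191 in HEP, 5246 in HPC, 6639 in hESC and 6655 in MES. The depth behind the values is unknown. By the same rule, 466 genes were highest in hESC (2.64%), 315 in MES (1.79%) and 237 in HPC (1.34%). The lowest genes numbered 149 in hESC (0.845%), 24 in MES (0.136%) and 174 in HPC (0.987%).

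Relative to the mean of the libraries, the HEP values rose with the GC content of transcripts. Over the 6366 genes whose mean value reached 5, the deviation of a gene in HEP from its own mean over the libraries had a Spearman rho of 0.72 with GC content, against -0.57 in hESC, -0.52 in MES and 0.37 in HPC. These are descriptions across genes of shared libraries. The slope in HEP was 0.62 on the log2 scale per 10 points of GC content. After the trend was divided out of each library, the rho in HEP was 0.14. With this trend removed, 166 genes were highest in HEP (0.942% of all, 2.18% of those at 5 or more in any library) and 42 were lowest (0.238% of all, 0.951% of those at 5 or more in all other libraries). HEP held the largest of the 4 values for 18.5% of genes at 5 or more in any library and the smallest for 38.7%, and with the trend removed for 20.6% and 24.1%. Both with and without the removal, 129 genes were highest (0.732%) and 34 were lowest (0.193%), and these are described as passing both ways. The removal also takes out any difference between the cells that follows GC content, and the size of that part was not tested. It also rescaled the libraries. In the median over genes, HEP rose by 0.36 relative to hESC, 0.20 relative to MES and 0.07 relative to HPC on the log2 scale. How much of the change in the counts came from this shift was not tested.

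The share of highest genes among all genes passing the rule was 52.3% in the deposited values and 79.8% with the GC trend removed. It was 70.6% with median-of-ratios scaling (295 highest and 123 lowest) and 76.2% with a common total (297 and 93). Median-of-ratios scaling raised HEP by 0.59 relative to hESC, by 0.53 relative to MES and by 0.03 relative to HPC on the log2 scale. All 184 highest genes were among the 295 and among the 297. Of the 168 lowest genes, 112 were among the 123 and 92 were among the 93.

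**Figure D1:**
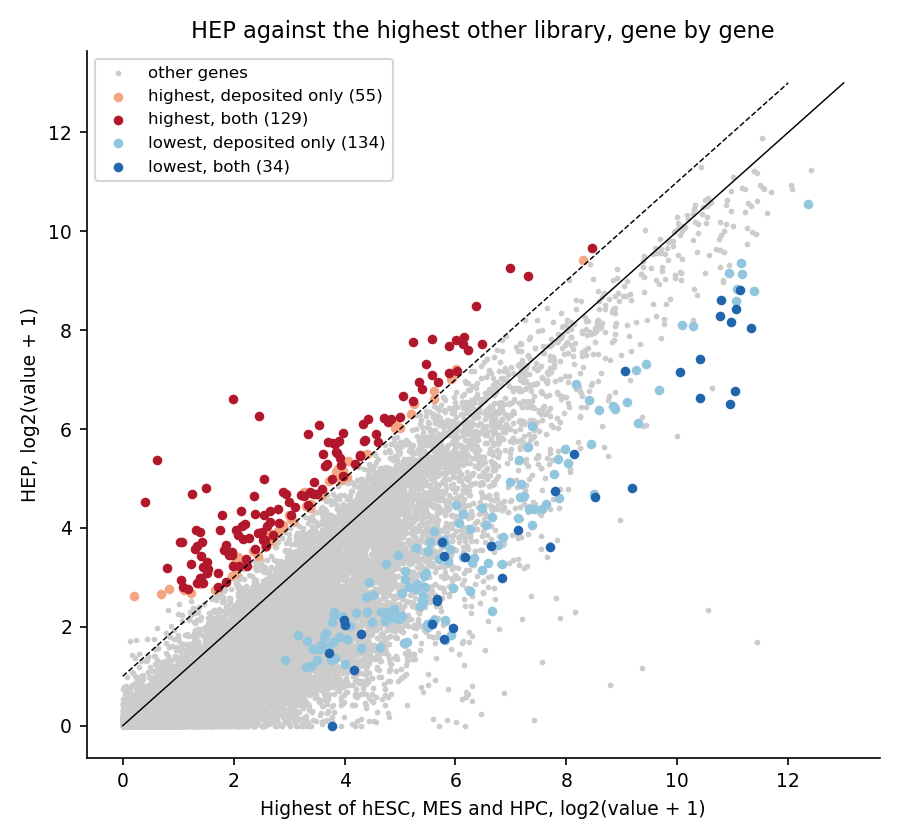
Each gene's value in HEP (vertical axis) against its largest value in hESC, MES and HPC (horizontal axis), both as log2(value + 1). Dark points passed both ways and pale points in the deposited values only, and the 129 genes highest both ways, with HEP values from 5.76 to 806, lie above the dashed line of a 2-fold difference.

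The 4 genes that mark the day 4 library, PLVAP, SOST, APLN and COL4A1, all passed both ways. They were chosen with earlier results of these data known, so that they passed is no separate evidence. SOST, which encodes sclerostin, a secreted WNT antagonist best known from osteocytes, stood at 0.11, 0.10, 40.6 and 0.53. HEP was the only library above 1, and the log2 difference from HPC, the nearest, was 4.76 (4.72 with the GC trend removed), the largest of any gene at 10 or more in HEP that passed both ways. APLN encodes apelin, the peptide ligand of the receptor APLNR and a product of endothelial tip cells. It stood at 0.32, 0.02, 22.0 and 0.22, so HEP again was the only library above 1 (log2 difference 4.12).

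PLVAP, which forms the diaphragms of endothelial fenestrae and caveolae, stood at 0.35, 0.36, 140 and 57.8. It was present in both CD31+ libraries and near 0 in the others, and its difference from HPC was smaller, 1.26 (1.05 with the trend removed). COL4A1, the alpha 1 chain of type IV collagen, stood at 23.9, 43.03, 158 and 38.3. It was expressed in every library, with HEP 1.85 above MES on the log2 scale (2.03 with the trend removed).

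The promoters of these genes are shown because the markers share the day 4 maximum and because COL4A1 and its partner COL4A2 are read from one stretch in opposite directions. The sequences come from the RefSeq table of GRCh38.p14, a later build than the hg19 named for the expression values, and are 150 bases ending just before the annotated start, on the strand of the gene, 5′ to 3′. Capitals in the first 3 mark CAGGAA or AGGAAG on either strand, letters that fit the core bound by ETS factors such as ERG. Capitals in the last mark GGGCGG on either strand, the core bound by SP and KLF factors. GGGCGG also occurs in the APLN window, where it is not marked, and it is common in promoters, as given below. PLVAP lies at chr19:17377343-17377492, SOST at chr17:43758792-43758941 and APLN at chrX:129654957-129655106, all on the minus strand. The COL4A1 and COL4A2 starts are at chr13:110307157 on the minus strand and chr13:110307284 on the plus strand, and the 126 bases between them, chr13:110307158-110307283, are written on the minus strand.
PLVAP: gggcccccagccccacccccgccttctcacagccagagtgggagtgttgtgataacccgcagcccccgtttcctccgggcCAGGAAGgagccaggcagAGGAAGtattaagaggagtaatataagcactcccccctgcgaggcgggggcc
SOST: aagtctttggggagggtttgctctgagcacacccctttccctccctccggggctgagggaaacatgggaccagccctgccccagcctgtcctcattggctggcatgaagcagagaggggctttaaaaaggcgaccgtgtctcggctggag
APLN: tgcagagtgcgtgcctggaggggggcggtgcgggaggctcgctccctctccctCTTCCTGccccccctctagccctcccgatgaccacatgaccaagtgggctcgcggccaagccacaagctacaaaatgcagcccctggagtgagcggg
COL4A1 and COL4A2: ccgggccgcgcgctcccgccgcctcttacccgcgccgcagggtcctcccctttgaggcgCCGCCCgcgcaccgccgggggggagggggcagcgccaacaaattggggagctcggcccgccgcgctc

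The marked letters occurred in the PLVAP and APLN windows and not in the SOST window. COL4A2, on the other side of the stretch shared with COL4A1, stood at 21.4, 40.5, 209 and 68.9 and passed both ways as well (log2 difference 1.59). The 2 collagen genes had the same order from hESC to MES to HEP and differed in which library came second, MES for COL4A1 and HPC for COL4A2.

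Markers of endothelium were read as a check of the label. CDH5, VE-cadherin, stood at 0.33, 0.14, 73.5 and 25.1, TIE1 at 0.91, 0.63, 60.0 and 54.7, and ESAM at 0, 0.17, 28.2 and 21.7. CD34, one of the antigens of the sort, stood at 0.13, 1.35, 43.6 and 18.4. These genes were near 0 in hESC and MES and present in both CD31+ libraries. Other defining markers were low: PECAM1, the gene of the sort antigen CD31, was at 1.83 in HEP and 7.49 in HPC, the tight junction gene CLDN5 at 1.57 and 5.23, and EMCN, endomucin, at 0.02 and 0.39. VWF, the von Willebrand factor of mature endothelium, was at 9.74 in HEP and 8.99 in HPC. The sort read CD31 protein, and the low PECAM1 value in HEP does not match it. Whether that value comes from the cells or from the gene model used by the authors, which is not stated, was not tested. In a bulk library, fewer cells of a type and less RNA per cell cannot be told apart.

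**Figure D2:**
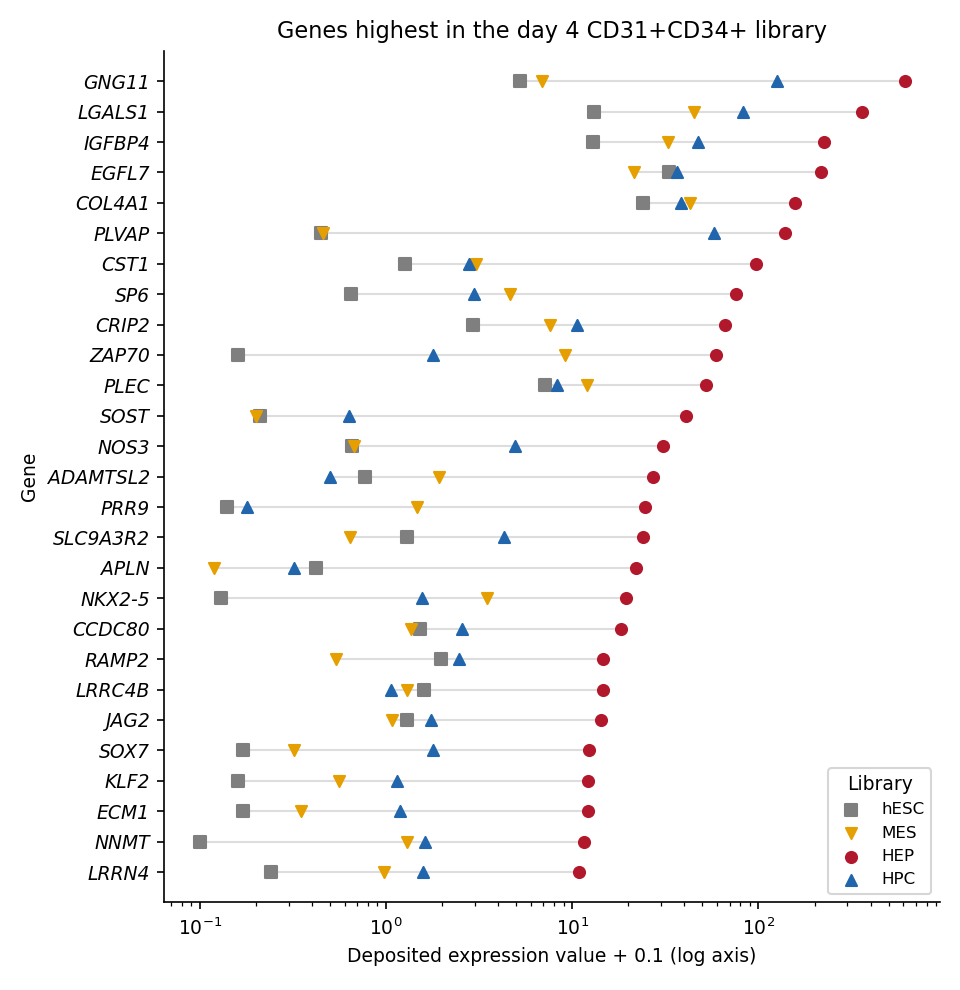
Deposited values in the 4 libraries (log axis, 0.1 added for drawing) of genes highest in HEP both ways. Each row is a gene and each symbol a library. HEP lies to the right of every other symbol, with HPC the next for most genes.

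The gene lists here and below were chosen with earlier results of these data known, so their shares are no separate evidence. Of 30 measured genes of VEGF, TIE and apelin signalling, 10 were highest in HEP (33.3%, against 1.04% of all genes) and 9 did so both ways. For lists with many genes at 5 or more in any library, here 19 of the 30, the 2.25% of all such genes is the nearer base. Over all 30, low genes included, the median difference from the highest other library was -0.01 (-0.08 with the GC trend removed), beside -0.44 (-0.28) over all 17630 genes. The VEGF receptor gene KDR stood at 24.5, 62.4, 210 and 88.3. It was thus already present in hESC and highest in HEP. FLT1, a second VEGF receptor, stood at 19.7, 10.4, 52.5 and 23.4, and TEK, the angiopoietin receptor TIE2, at 6.58, 2.09, 42.6 and 18.4. The co-receptor NRP1 stood at 0.55, 14.7, 32.3 and 10, with MES the nearest library.

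Genes acting behind these receptors passed as well. NOS3, the endothelial nitric oxide synthase, stood at 0.56, 0.57, 30.7 and 4.81 (log2 difference 2.45). RASIP1, a RAS-binding protein needed for vessel lumens, stood at 1.90, 0.57, 53.3 and 13.9. RAMP2, the partner of the adrenomedullin receptor, stood at 1.87, 0.44, 14.6 and 2.38. These 3 genes were low in hESC and MES, and HPC held the second value. PLXND1, a semaphorin receptor of endothelium, stood at 2.96, 11.1, 122 and 39.5. FLT4, the VEGF-C receptor, stood at 1.73, 0.92, 18.1 and 7.01, and its difference of 1.26 became 0.99 with the GC trend removed, just short of the rule. APLNR itself was not highest in HEP: it stood at 0.57, 344, 250 and 15.6, so the receptor was largest in MES and its ligand APLN in HEP.

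Of 38 endothelial surface and junction genes, 11 were highest in HEP (28.9%, against 1.04% of all genes), all both ways. The median difference over the 38 was 0.10 (0.04 with the trend removed). EGFL7, a secreted factor of endothelium, stood at 32.9, 21.4, 216 and 36.6 (log2 difference 2.53). MMRN2, an endothelial matrix protein, stood at 0.80, 0.23, 69.6 and 26.5. SELE, the leukocyte adhesion molecule E-selectin, stood at 0.01, 0.01, 8.09 and 0.75, and with SOST and APLN was 1 of 3 genes passing both ways that were under 1 in every other library. PROCR, the protein C receptor, stood at 11.9, 12.9, 59.4 and 14.8, so it was expressed outside HEP at a like level in 3 libraries. The others were CDH5, CD34, JAM3, MCAM, ENG, TEK and ECE1, with HEP values from 8.87 for ENG to 74.7 for ECE1. The summed value of the list was 252, 198, 1102 and 614. ICAM2 was higher in HPC (113) than in HEP (73.2), and did not pass.

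Among 9 genes of caveolae and diaphragms, 3 passed (33.3%, against 1.04% of all genes) and 2 did so both ways. Besides PLVAP these were EHD2, which stabilises caveolae at the membrane, at 0.63, 2.53, 16.0 and 3.63. PRKCDBP, which encodes the caveolar coat protein cavin-3, stood at 8.75, 12.1, 30.0 and 6.71 and passed in the deposited values only (1.24, then 0.73). The tip cell list, which shares APLN, KDR, COL4A1, COL4A2, MCAM and PLXND1 with lists described here, had those 6 of 18 highest both ways. Their share was 33.3%, against 0.732% of all genes.

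Of 36 endothelial transcription factors, 5 were highest in HEP (13.9%, against 1.04% of all genes) and 4 both ways, against 0.732% of all genes. KLF2, a factor induced by blood flow in endothelium, stood at 0.06, 0.46, 12.1 and 1.04 (log2 difference 2.68). SOX7, a SOXF factor of early endothelium, stood at 0.07, 0.22, 12.2 and 1.69 (2.29). NFATC1, known from endocardium and heart valves, stood at 0.56, 1.49, 15.5 and 3.44 (1.89). ERG, an ETS factor of endothelium, was listed at 0 in MES and stood at 0.57 in hESC, 6.46 in HEP and 2.64 in HPC (1.04). All 4 were under 2 in hESC and MES. BCL6B, a repressor found in endothelium, stood at 2.74, 3.60, 30.4 and 14.3 and passed in the deposited values only. Without HPC among the libraries compared, 11 of the 36 were highest in HEP, against 2.81% of all genes.

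Of 27 transcription factors of blood formation, 0 were highest in HEP, which is near the background of 1.04%. When HPC was left out of the comparison 8 were highest, against 2.81% of all genes. With a common total 1 of the 27 passed. Their summed value was 25.8, 35.5, 243 and 523, so HEP lay between MES and HPC.

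Of 32 basement membrane genes, 5 were highest in HEP (15.6%, against 1.04% of all genes) and 3 both ways: COL4A1, COL4A2 and FBLN2, a fibulin, which stood at 8.14, 18.5, 101 and 32.3 (1.62). HSPG2, which encodes perlecan, stood at 5.46, 15.8, 40.1 and 14.3, and SERPINH1, the collagen chaperone HSP47, at 225, 316, 682 and 217. Both passed in the deposited values only, at 1.29 and 1.11, and stood at 0.89 and 0.60 with the GC trend removed. P4HA1, a collagen prolyl hydroxylase, went the other way in the deposited values, at 13.6, 27.9, 3.55 and 8.51, but was 0.15 above the lowest other library with the trend removed. Without MES, 10 of the 32 were highest in HEP.

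Of 26 genes of interstitial matrix, 3 were highest (11.5%, against 1.04% of all genes) and 2 both ways. The median difference over all 26 was -0.64, beside -0.44 over all 17630 genes. Among genes at 5 or more in any library the order was reversed, with -0.64 for the 20 members and -0.92 over all 8174. FN1, fibronectin, stood at 12.2, 158, 545 and 90.0 (1.78), and COL1A1, type I collagen, at 3.96, 12.1, 51.3 and 12.8 (1.93). LOXL2, a collagen crosslinking enzyme, stood at 5.33, 13.7, 35.5 and 7.07 and passed in the deposited values only. MES held the second value for FN1, LOXL2, HSPG2 and SERPINH1, and HPC, just above MES, for COL1A1.

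Of 32 arterial and NOTCH genes, 4 were highest in HEP (12.5%, against 1.04% of all genes), all both ways. JAG2, a NOTCH ligand, stood at 1.19, 0.98, 14.2 and 1.64 (2.52), and GJA5, the arterial gap junction gene of connexin 40, at 1.18, 2.87, 24.8 and 9.90 (1.24). The other 2, NRP1 and SOX7, are described above. HEY2, a NOTCH target, stood at 1.56, 2.57, 5.79 and 1.40, and the chemokine receptor gene CXCR4 at 0.80, 6.24, 12.9 and 5.74. These 2 passed only with the GC trend removed (1.66 and 1.39, from 0.93 and 0.94). Of 11 venous and lymphatic genes, EPHB4 (35.1, 37.2, 89.9 and 32.5) and FLT4 passed in the deposited values (18.2%, against 1.04% of all genes). With the trend removed 0 passed, beside 0.942% of all genes. Over all measured members, the median difference was -0.10 in the arterial and NOTCH list (-0.16 with the trend removed) and -0.12 in the venous and lymphatic list (-0.19).

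In BMP and TGF-beta signalling, 4 of 33 genes were highest in HEP (12.1%, against 1.04% of all genes) and 3 both ways. ACVRL1, the receptor ALK1, stood at 0.14, 1.63, 38.0 and 11.9, and its co-receptor ENG, endoglin, at 0.20, 0.64, 8.87 and 1.85. SMAD6, an inhibitor of BMP signalling, stood at 0.45, 9.94, 37.0 and 11.6. All 3 had their second value in HPC. Among 25 WNT antagonists and modulators, SOST alone passed (4%, against 1.04% of all genes), and the median over all measured members was -0.63. Of 52 genes of small GTPase and actin regulation, 2 were highest in HEP (3.85%). This stands beside 1.04% of all genes and 2.25% of those at 5 or more in any library. Only RHOB, a stress-induced small GTPase, passed both ways, at 3.75, 70.4, 233 and 60.3. The integrin gene ITGA3, a laminin receptor subunit, stood at 4.23, 2.88, 18.6 and 4.05.

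**Figure D3:**
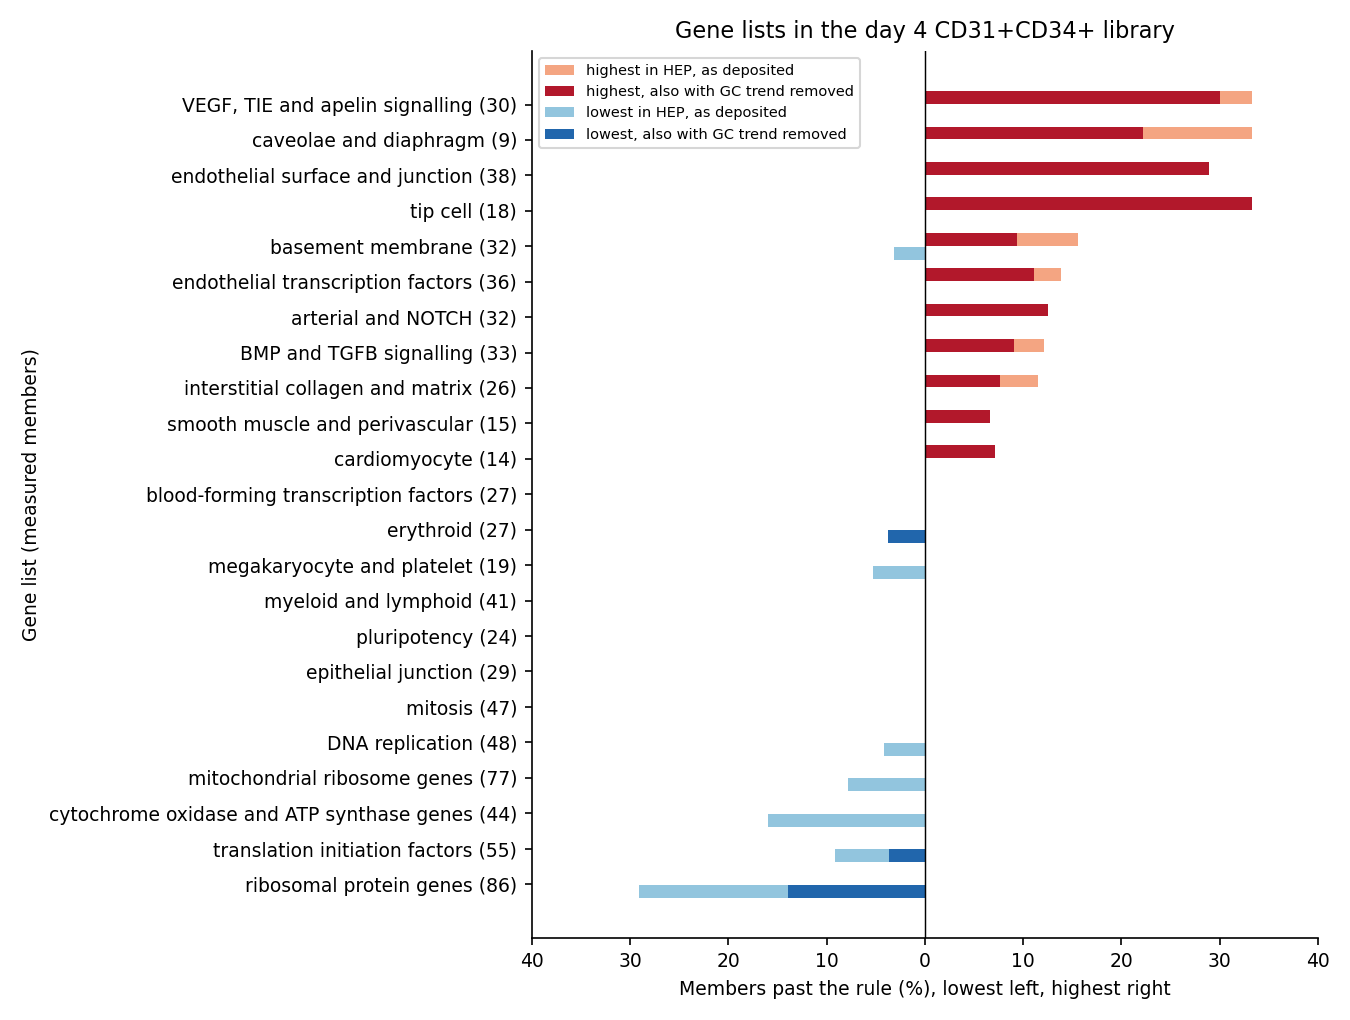
Share of the measured members of each gene list (number in brackets) that were highest in HEP, to the right, or lowest in HEP, to the left, in percent. Pale bars are deposited values and dark bars genes that passed also with the GC trend removed. VEGF, TIE and apelin signalling reached 33.3% highest and ribosomal protein genes 29.1% lowest.

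Several of the genes with the largest differences were in no vascular list. CST1, a secreted cystatin that inhibits cysteine proteases, stood at 1.17, 2.95, 96.6 and 2.70 (log2 difference 4.63). SP6, a zinc finger factor known from tooth and limb development, stood at 0.55, 4.51, 75.4 and 2.86 (3.79). PRR9, which encodes a proline-rich protein, stood at 0.04, 1.37, 24.6 and 0.08 (3.43), and ADAMTSL2, a secreted matrix protein, at 0.67, 1.83, 26.9 and 0.40 (3.30). MES held the second value for each of these 4 genes. ZAP70, a tyrosine kinase of T cell receptor signalling, stood at 0.06, 9.10, 58.9 and 1.69 (2.57), and NKX2-5, a cardiac transcription factor, at 0.03, 3.37, 19.3 and 1.46 (2.21). ZAP70 and NKX2-5 likewise had MES second and low HPC values.

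Others followed the vascular lists in having HPC second. GNG11, a G protein gamma subunit, stood at 5.14, 6.81, 608 and 126 (2.27). LGALS1, galectin-1, stood at 12.9, 44.8, 359 and 82.1 (2.11), and IGFBP4, which binds insulin-like growth factors, at 12.9, 32.4, 224 and 47.0 (2.23). These were present in all libraries. CRIP2, a LIM domain protein, stood at 2.82, 7.48, 66.3 and 10.6, and ECM1, a secreted matrix protein, at 0.07, 0.25, 12.1 and 1.09. LRRC4B, a synaptic adhesion protein, differed in that hESC was second (1.51, 1.19, 14.6 and 0.97).

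The nearest library was HPC for 90 of the 129 genes highest both ways, MES for 28 and hESC for 11. Under 1 in both hESC and MES were 25 of the 129. In HPC, 22 of the 129 were at 5 or more and, with 1 added, at least 2-fold above hESC and MES. Genes under 5 in HPC are not in the 22. HEP stood at 100 or more for 20 genes and between 5 and 10 for 23. A log2 difference of 2 or more was seen for 28. When HPC was left out, 495 genes were highest in HEP (2.81%), and when MES was left out, 359. Leaving out hESC gave 194. The count of genes above all others therefore turned mostly on HPC and MES.

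Markers of other cell types were read for the cells a sort could hold. A count of 0 highest in lists of this size is near the background of 1.04% of all genes, so sums are given beside it. Of 27 erythroid genes 0 were highest in HEP, and their sum was 77.2, 144, 130 and 3274, with 8 of the 27 listed at 0 in HEP. Of 41 myeloid and lymphoid genes 0 were highest, with a sum of 92.8, 24.97, 89.1 and 399 and 9 members at 0 in HEP. Of 24 pluripotency genes 0 were highest, with a sum of 3835, 1372, 467 and 185. HEP lay below hESC and MES and above HPC in the last of these. Of 15 smooth muscle and perivascular genes, 1 was highest in HEP (6.67%, against 1.04% of all genes). It was RGS5, a pericyte marker, which passed both ways (2.88, 5.02, 11.5 and 2.49). The sum of the list was 121, 633, 321 and 73.6. Of 14 cardiomyocyte genes, 1 was highest in HEP as deposited (7.14%, against 1.04% of all genes), NKX2-5, which passed both ways. ACTC1, cardiac actin, passed only with the GC trend removed (2.35, 49.9, 54.6 and 1.71). The sum of the list was 18.0, 183, 136 and 222. Of 29 epithelial junction genes 0 were highest, with a sum of 1263, 1766, 1568 and 316. The sum over 32 keratin genes was 670, 1440, 1366 and 205, so in both lists HEP lay between hESC and MES and above HPC. The part of other cells in these values was not tested.

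Genes lowest in HEP were led by the translation machinery. Of 86 ribosomal protein genes, 25 were lowest in HEP (29.1%, against 0.953% of all genes and 3.91% of those at 5 or more in all other libraries). Here 83 of the 86 were at that level. Of the 25, 12 were lowest also with the GC trend removed, against 0.193% of all genes. HEP held the smallest of the 4 values in 61 of the 83 members at 5 or more in any library, against 38.7% of all genes at 5 or more in any library. The summed value of the list was 122602, 85744, 58602 and 105485. The count was 16 with median-of-ratios scaling and 22 with a common total. Ribosomal protein genes have many near-identical pseudogene copies, so the split of reads between single genes is uncertain.

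RPS24, a protein of the small subunit, had the largest difference among these genes: it stood at 1972, 1163, 90.3 and 440 (log2 difference from HPC -2.27, and -1.92 with the trend removed). RPL11, of the large subunit, stood at 2014, 1331, 285 and 991 (-1.79 and -1.63), and RPS25 at 1751, 1177, 312 and 1032 (-1.73 and -1.66). RPL7 stood at 2574, 1611, 264 and 832 (-1.65 and -1.30). In each case hESC was highest, followed by MES, HPC and HEP. The 12 genes passing both ways had a median GC content of 48.2% and a median difference from the lowest other library of -1.54 (-1.24 with the trend removed). The 13 that passed in the deposited values only had 44.9% and -1.35, which became -0.24. The other 58 had 51.9% and -0.26 (-0.07). Over all 83, the median was -0.60 in the deposited values and -0.24 with the trend removed, beside 0.18 and 0.29 over the 4302 genes at 5 or more in all other libraries. RPS6, the ribosomal protein phosphorylated downstream of mTOR, was at 2684, 1770, 441 and 1184, and its difference of -1.42 became -0.96.

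Of 55 translation initiation factors, 5 were lowest in HEP (9.09%, against 0.953% of all genes) and 2 were lowest both ways, against 0.193% of all genes. The 3.91% of genes at 5 or more in all other libraries is to be set beside 5 of the 39 members at that level. EIF4A2, an RNA helicase of the cap-binding complex, stood at 208, 50.6, 11.3 and 82.8 (-2.07, and -1.59 with the trend removed). EIF3E, a subunit of the scaffold factor eIF3, stood at 364, 216, 23.8 and 78.4 (-1.68 and -1.25). NPM1, nucleophosmin, a nucleolar protein of ribosome assembly, stood at 2109, 942, 108 and 296. LDHB, a lactate dehydrogenase subunit, stood at 1362, 740, 97.7 and 292 (-1.57 and -1.22). HSPD1, the mitochondrial chaperonin HSP60, stood at 579, 245, 27.0 and 76.6 (-1.47 and -1.29), and TFRC, the transferrin receptor, at 48.6, 50.0, 4.77 and 16.8 (-1.62 and -1.31). For all of these except EIF4A2, HPC was the second lowest library.

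**Figure D4:**
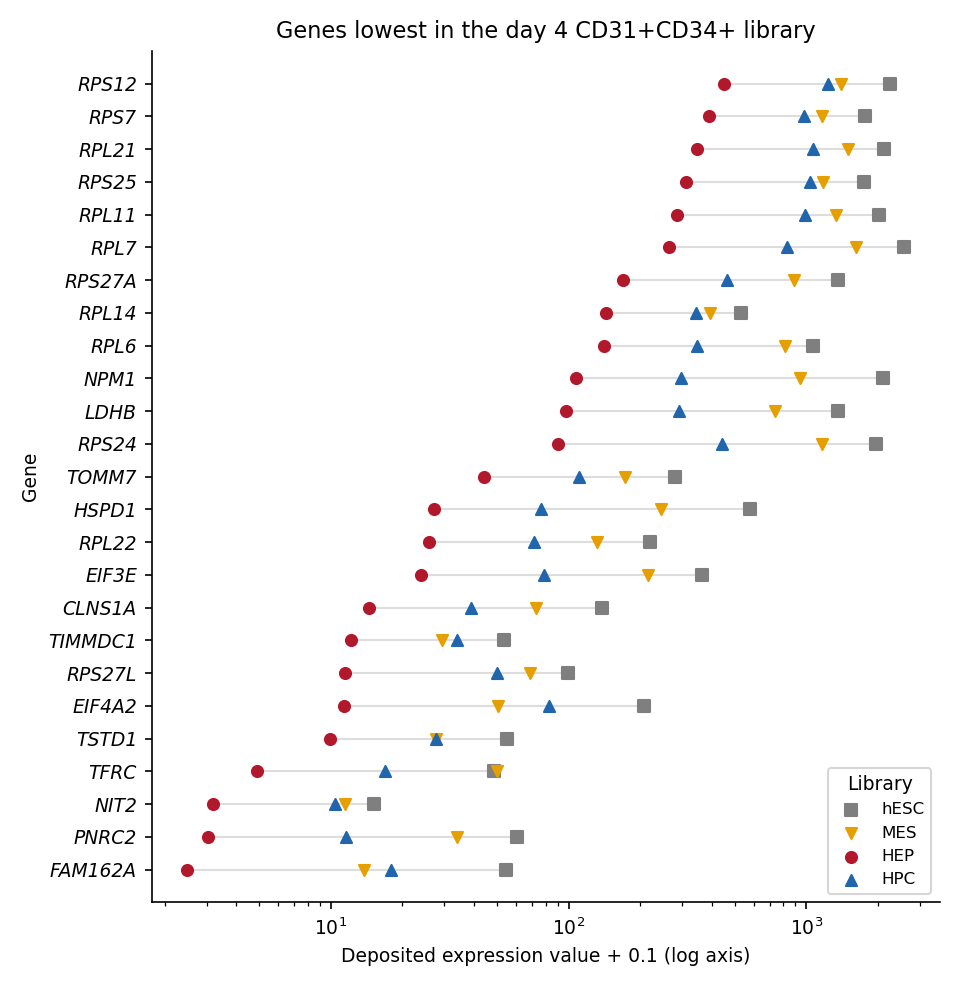
Deposited values in the 4 libraries (log axis, 0.1 added for drawing) of genes lowest in HEP both ways. HEP lies to the left of every other symbol, and hESC lies farthest to the right for most genes.

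Of 44 cytochrome oxidase and ATP synthase genes, 7 were lowest in HEP (15.9%, against 0.953% of all genes). The 3.91% of genes at 5 or more in all other libraries is to be set beside 7 of the 31 members at that level. With the GC trend removed the count of lowest genes was 0, near the background of 0.238% and 0.951%. COX7C, a subunit of cytochrome oxidase, stood at 816, 250, 109 and 456, and its difference of -1.19 became 0.44. Of 77 mitochondrial ribosome genes, 6 were lowest (7.79%), and of 47 complex I genes, 3 (6.38%), beside the same 0.953% and 3.91%. At 5 or more in all other libraries, the base of the 3.91%, were 72 of the 77 and 39 of the 47. Both counts of lowest genes were 0 with the trend removed, which is again near the background. Outside these lists, TOMM7, a subunit of the mitochondrial import pore, passed both ways (279, 172, 44.1 and 110). Of 47 mitosis genes 0 were lowest in HEP in either set of values, beside 0.953% of all genes as deposited and 0.238% with the trend removed.

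Of the 34 genes lowest both ways, 31 had their highest value in hESC and 27 followed the order hESC, MES, HPC and HEP from high to low. HPC was the nearest library for 29 and MES for 5. MYCN, a MYC family transcription factor, was among the exceptions to that order at 26.5, 11.97, 4.93 and 49.6, with HPC highest. When HPC was left out of the comparison, 1894 genes were lowest in HEP (10.7%), so most genes that were low in HEP against hESC and MES were not 2-fold below HPC, or were under 5 there. When MES was left out 230 genes were lowest, and without hESC 182.

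The calls that depend on the GC trend had a clear pattern in GC content. When the 6366 genes were split by GC content into 5 classes of equal size, the share lowest in HEP in the deposited values was 6.28% in the class with the least GC and 0 in the class with the most. With the trend removed these shares were 0.706% and 0.236%. The share highest in HEP was 0.235% in the class with the least GC and 5.34% in that with the most, and 0.863% and 2.59% with the trend removed. Of the 167 lowest genes with a known GC content, 162 lay below the median of 51.6%, and of the 183 highest genes, 153 lay above it. Of the genes passing both ways, 28 of 33 lowest and 98 of 128 highest did so. The median GC content was 57.8% in the 129 genes highest both ways, 62.4% in the 55 highest in the deposited values only, and 44.5% in the 37 highest with the trend removed only. Among the last, ITGB1, the integrin beta 1 chain, stood at 109, 115, 68.9 and 32.6, below hESC and MES in the deposited values, and so was highest in HEP through the removal alone. Such genes are not counted as highest in the text above.

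**Figure D5:**
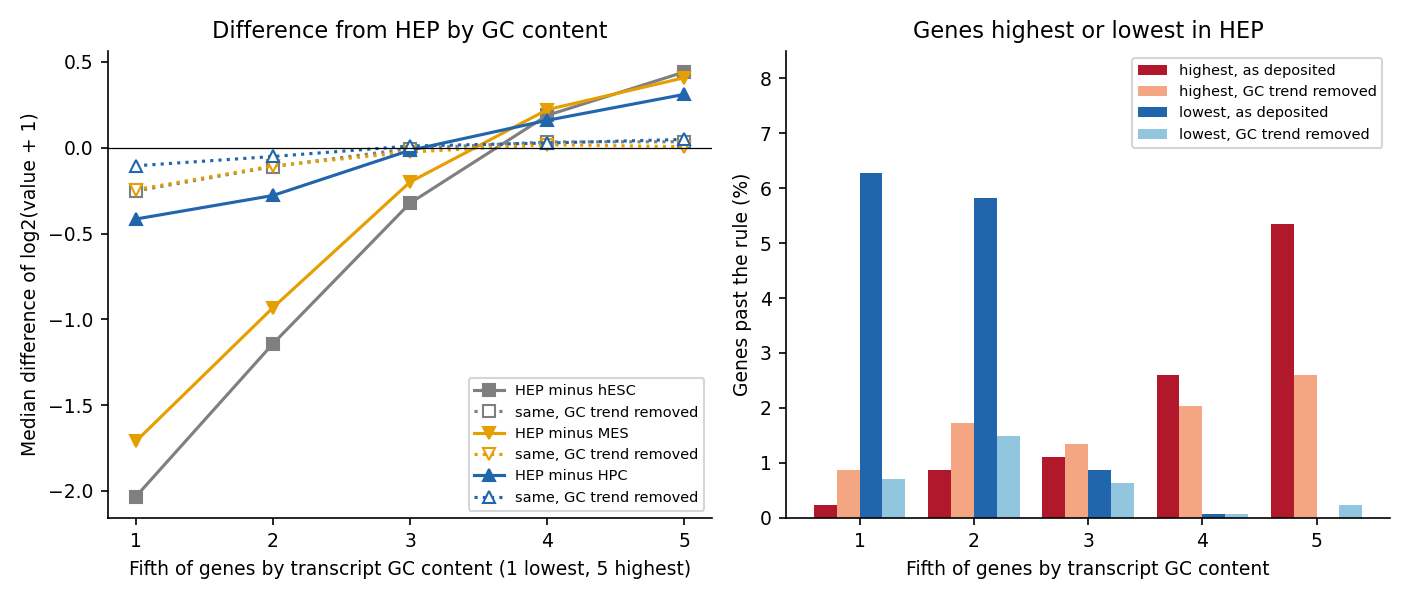
Both horizontal axes give 5 classes of genes of equal size by transcript GC content, the least first. Left, the median log2 difference of HEP from each other library, filled in the deposited values and open with the trend removed; the largest gap is -2.03 against hESC in the class with the least GC. Right, the share of genes (percent) highest or lowest in HEP.

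Near the threshold, PPP1R18, SARDH and ABHD17A were just inside the rule for highest, PPP1R18 and SARDH at a log2 difference of 1, and EFNB1, ST3GAL1 and ZNF792 were just outside, ZNF792 at 0.99. For lowest, UCHL3, LHFPL2 and HNRNPH1 were just inside and SAAL1, FARSB and PGM2 just outside, FARSB and PGM2 at -0.99.

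Promoter letters were counted in 250 bases before the start for genes with a single start in the RefSeq table: 63 of the 129 highest both ways, 24 of the 34 lowest both ways and 10127 of all genes. The letters CAGGAA, on either strand, occurred in 33.3% of the 63 and 21.3% of all. AGGAAG, which overlaps it by 5 letters, occurred in 36.5% and 28.1%. In the 24 lowest genes the shares were like those in the 63, 29.2% for the former string and 37.5% for the latter. CCGGAA, an ETS core common in promoters of housekeeping genes, occurred in 6.35% of the 63, 22.4% of all and 50% of the 24 (12 genes). Among the 3825 genes with a single start whose mean reached 5, CAGGAA occurred in 19.3%, AGGAAG in 25.5% and CCGGAA in 32.3%. TATAAA occurred in 15.9% of the 63, 8.07% of all and 12.5% of the 24. ACAAAG occurred in 20.6% of the 63, 9.87% of all and 0 of the 24. GGGCGG occurred in 73.0% of the 63, 62.2% of all, 54.2% of the 24 and 72.1% of the 3825. The 14 letter strings counted included CACGTG, in 4.76% of the 63 and 8.17% of all, and GTAAACA, in 0 of the 63 and 1.84% of all. These are descriptions of letters, with no test.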

How the data were processed

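Expression was measured by RNA sequencing in 4 libraries of H1 cells, 1 per population. Per the labels' protocols, RNA was taken with Trizol and sequenced from Illumina TruSeq RNA kit libraries. The authors deposited, per gene symbol, a normalised expression signal with 2 decimals. BWA, Bowtie, RSEM and hg19 are named per the submitters' processing notes; their versions and roles, whether the measure is FPKM or TPM, and the use of strand are not stated in the sources used here. Overlapping and antisense genes therefore cannot be told apart, and near-identical genes share reads. Depth is unknown, so no counting interval or floor is given, and a value of 0 is listed as 0.

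Each table had 17634 rows; 28 carried a symbol turned into a date, and 4 rows that shared names were left out, leaving 17630 genes. Differences are log2 of (value + 1). With 1 library per group, genes were described by the rule of size and no test was run. The members and gene lists (53 with members measured) were chosen with earlier results of these data known. GC content was the median over protein-coding transcripts of GENCODE 29, found for 17426 genes (98.8%). The GC trend was the median log2 deviation from the gene mean in 50 GC bins (genes whose mean reached 5), smoothed by averaging 5 neighbouring bins, and each value was divided by it. Median-of-ratios scaling used genes above 0 in every library with a mean of 1 or more.

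Named genes were the 4 markers; the 25 with the largest difference in each direction among genes passing both ways at 10 or more (in HEP, or in the lowest other library); list members that passed or define a list; the 3 genes on each side of a threshold; and examples passing in 1 set of values only. Promoters came from the RefSeq table of GRCh38.p14, in which 94 of the 129 genes highest both ways and 30 of the 34 lowest were found. Other settings were pseudocounts of 0.1 or 5, a fold of 4, a minimum of 20 or none, the scalings and trend removals, and leaving out each other library. Scripts were tested on simulated data and used Python 3.11.15, numpy 2.4.6, pandas 2.3.3, scipy 1.17.1 and matplotlib 3.10.9.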

Additional observations from a re-analysis of the deposited data

How the results depend on the processing

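The 2 counts were 184 genes highest and 168 lowest in HEP. The count of highest genes was 113 with a pseudocount of 5, 99 with a minimum of 20 and 29 with a fold of 4. It was 295 with median-of-ratios scaling, 295 with upper quartile scaling and 297 with a common total. The count of lowest genes was 72 with a pseudocount of 5, 85 with a minimum of 20, 5 with a fold of 4 and 93 with a common total. It was 42 with the GC trend removed, 40 with the trend removed as a straight line and 34 with GC and length trends removed. The stricter minimum and fold select fewer genes by construction, and the cause of the other shifts was not tested. Under the remaining settings, other than leaving out a library, both counts stayed within 1.5 times. Leaving out 1 of the other libraries gave 194 to 495 highest genes and 182 to 1894 lowest genes. Of 52 genes (the markers and the 25 with the largest difference in each direction), 17 kept their call under every setting in which they were present; 12 of the 52, which are ribosomal protein genes, were by construction absent from the common total without gene families. No paired analysis was possible because each population was 1 library and the labels carry no replicate numbers. Unknown depth limits all values near 0, and differences below the rule were not assessed.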

Other observations

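Genes outside the lists described above also had their maximum in HEP. Of 35 genes of antigen presentation and interferon response, TAP1, the peptide transporter of the class I pathway, stood at 4.75, 1.53, 12.4 and 0.91 in hESC, MES, HEP and HPC, and IRF1, an interferon regulatory factor, at 1.53, 1.5, 6.42 and 1.43. Both were highest in HEP both ways (5.71% of the list, against 0.732% of all genes), while the sum of that list was larger in HPC (1771) than in HEP (1233). APOA1, the main protein of high-density lipoprotein and a member of the endoderm list, stood at 0.49, 1.99, 10.7 and 2.57. NDRG1, a gene induced by hypoxia, stood at 0.48, 1.65, 6.90 and 1.42. SLC20A1, a phosphate transporter, stood at 40.4, 35.5, 135 and 46.7.

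Chosen after its values were seen, SP7, the osteoblast transcription factor osterix, stood at 0.03, 0.03, 5.17 and 0.15. It was highest in HEP in the deposited values only, close to the minimum of 5, whereas SOST and SP6 passed both ways.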
